A study of Mus musculus with 6 samples.

Results

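Transthyretin (Ttr, MGP_C57BL6NJ_G0024588) was followed in mouse cochlear RNA together with Clic6 (MGP_C57BL6NJ_G0023475) and Folr1 (MGP_C57BL6NJ_G0033074), which share with it a site of expression, the choroid plexus epithelium. The 3 genes were selected on their presence among the 2741 genes that the authors list as down-regulated by cell treatment, out of 41096 genes in the count table. Their difference between the treatment groups is therefore what chose them and is given as a description with no test. The labels place 3 libraries in each of 2 groups. Sound trauma animals (specimens 6, 8 and 10) were exposed in the left ear for 4 h to sound at 16 kHz, a narrow band noise in the labels and a pure tone in the paper's methods, and, per those methods, received 1 µl of artificial perilymph 48 h later, although the labels name noise alone. MSC treated animals (specimens 13, 18 and 20) had the same exposure and received human mesenchymal stromal cells (MSCs) of umbilical cord Wharton's jelly in the same way. All were female mice of 4 weeks, of a strain written C56Bl/6 in the labels and C57BL/6 in the methods, and no animal without sound exposure is among the libraries analysed here. The methods give 5 animals per condition, whereas 3 libraries per group are analysed here. The left cochlea was taken 2 days after treatment per the labels and 72 h after it per the methods.

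The choroid plexus is the epithelium of the brain ventricles that secretes cerebrospinal fluid. Its cells make transthyretin in very large amounts, export it into the fluid as a carrier of thyroxine and, together with retinol-binding protein, of retinol, and for this reason Ttr is widely used as the marker of this epithelium. Clic6 encodes a member of the chloride intracellular channel family found in this and in other secretory epithelia. Folr1 encodes folate receptor alpha, which brings folate from the blood through the choroid plexus into the cerebrospinal fluid. Liver is the other main source of transthyretin, and the cochlea itself contains no choroid plexus.

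Reads on genes numbered between 9170390 and 11030863 per library, and values are given as the authors' scaled counts, in which 1 read was worth between 0.893 and 1.16. Where 3 values stand for a group, they follow the order 6, 8, 10 for sound trauma and 13, 18, 20 for MSC treated. Specimens 6 and 8 stood apart from the other libraries in named markers of central neurons and cochlea, and specimen 6 alone in those of pituitary. The pituitary list has 12 genes, 11 of them named, and the neuronal list 20, 16 of them named. All of these named genes are on the authors' down-regulated list, which fixed their direction between the groups. The 11 named genes of the pituitary list, led by the hormones Gh and Prl, summed to 299120 in specimen 6 and to between 1775 and 23005 in the other 5 libraries, with up to 4 of the 11 at 0 in a library. The 16 named genes of central neurons summed to 40064 and 50916 in specimens 6 and 8 and to between 10528 and 25608 elsewhere. A single gene, Pvalb, made up 28381 of the sum in specimen 6, 3038 of that in specimen 8 and 19549 of that in specimen 13. Without it, a choice made after its values were seen, the other 15 genes summed to 11683 in specimen 6, 47878 in specimen 8 and between 5810 and 8960 elsewhere. Gabra6, a marker of cerebellar granule neurons, was at 207 and 1431 in specimens 6 and 8 against 0.893 to 6.13 in the other libraries. The 7 named cochlear genes, among them Otog, Otof and Kcnq1, were all detected in every library and summed to 1967 and 2080 in specimens 6 and 8 and to between 3393 and 4875 elsewhere. All 7 are on the authors' up-regulated list. None of them lay wholly above the sound trauma values in MSC treated animals, which held for 4.25% of all genes tested.

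Ttr was high in a pair of sound trauma animals and low in the other 4 mice. Its scaled counts were 7414 in specimen 6, 4927 in specimen 8 and 109.9 in specimen 10 of the sound trauma group. In the MSC treated group they were 89.3 in specimen 13, 129 in specimen 18 and 77.7 in specimen 20. Specimen 10 lay inside the range of the MSC treated animals, so that the groups overlapped. The sound trauma mean was 4150 ± 3713 (SD, n = 3) and the MSC treated mean 98.6 ± 26.7 (SD, n = 3). The difference of the group means on the log2(scaled count + 1) scale was -4.03, with a pooled SD of 2.38 within groups.

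Against the MSC treated mean, Ttr was 75.2-fold higher in specimen 6, 50.0-fold higher in specimen 8 and 1.11-fold higher in specimen 10. Within the sound trauma group, specimen 6 exceeded specimen 10 by 67.5-fold (95% counting interval 56.4 to 81.3) and specimen 8 exceeded it by 44.8-fold (37.5 to 54.1). The step from specimen 6 to specimen 8 was 1.50-fold (1.45 to 1.56). Below these, specimens 18, 10, 13 and 20 followed in this order, and no neighbours among them differed beyond counting error. In reads, Ttr was the gene ranked 117 in specimen 6 and 148 in specimen 8, but ranked 11027 in specimen 10 and between 10597 and 12111 in the MSC treated libraries. Of the 15970 genes tested, 1 had a larger log2 difference from the MSC treated mean than Ttr in specimen 6, 10 had a larger one in specimen 8 and 3308 in specimen 10. Counting intervals cover the sampling of reads only, as no molecular identifiers are described in the sources used here. In whole cochlear RNA, fewer cells of a type and less RNA per cell cannot be told apart.

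Clic6 followed the same division with a smaller step. Its scaled counts were 272, 275 and 139 in sound trauma, against 115, 125 and 109 in MSC treated libraries. Every sound trauma value lay above every MSC treated value, but specimen 10 exceeded specimen 18 by only 1.12-fold (95% counting interval 0.877 to 1.43). Group means were 229 ± 77.7 (SD, n = 3) and 116 ± 7.98 (SD, n = 3), sound trauma first, a difference of -0.91 on the log2(scaled count + 1) scale with a pooled SD of 0.40. Specimens 8 and 6 did not differ beyond counting error (1.01-fold, 0.848 to 1.21), and specimen 6 was 1.95-fold above specimen 10 (1.59 to 2.41).

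Folr1 was the least abundant of the 3 genes. It had 66, 34 and 8 reads in sound trauma, against 2, 5 and 7 reads in MSC treated libraries, corresponding to scaled counts of 76.5, 32.5, 7.15, 2.08, 5.11 and 6.79. Specimen 13 was within the detection floor of 3 reads, and Folr1 did not pass the filter on low counts, while Ttr and Clic6 did. The sound trauma values lay above the MSC treated values, although the gap between specimen 10 and specimen 20 was a single read (1.05-fold, 95% counting interval 0.333 to 3.41). Specimen 6 was 2.35-fold above specimen 8 (1.53 to 3.67), and specimen 8 was 4.55-fold above specimen 10 (2.07 to 11.4). The means were 38.7 ± 35.1 (SD, n = 3) and 4.66 ± 2.39 (SD, n = 3), a difference of -2.39 on the log2(scaled count + 1) scale with a pooled SD of 1.26.

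**Figure D1:**
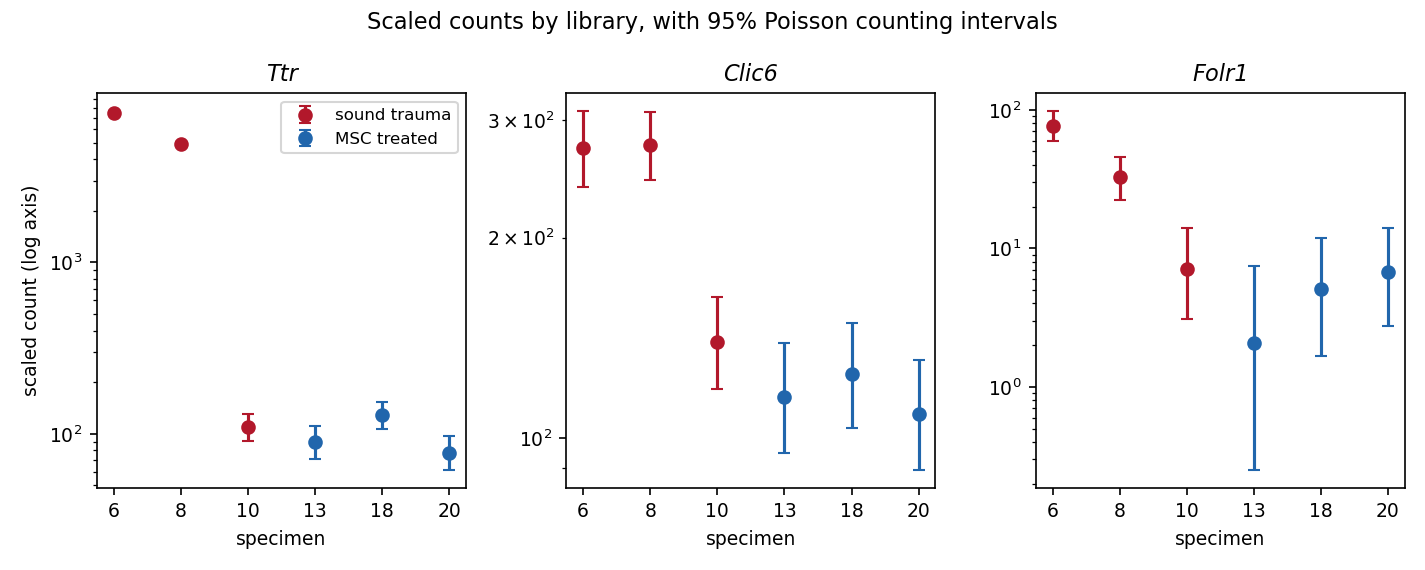
Scaled counts (log axes, which differ between panels) of Ttr, Clic6 and Folr1 in each library, by specimen number, with sound trauma in red and MSC treated in blue. Points are single libraries and bars are 95% Poisson counting intervals. Specimens 6 and 8 lie above the other 4 libraries for each gene, and specimen 10, at 109.9, 139 and 7.15, lies beside the MSC treated libraries.

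Of the 3 genes, 2 had groups that did not overlap (Clic6 and Folr1), where 2.92% of all genes tested had every sound trauma value above every MSC treated value. Since the genes were taken from the list of down-regulated genes, nothing follows from that count. Specimens 6 and 8 were both above the other 4 libraries for all 3 genes, an order held by 14.3% of the genes tested. For the same reason nothing follows from this order. Leaving out specimen 10 moved the log2 differences to -5.96 for Ttr, -1.23 for Clic6 and -3.27 for Folr1. Without specimen 6 they were -2.93, -0.75 and -1.65, and without specimen 8 they were -3.22, -0.74 and -2.25. Per length of transcript, the authors' mean FPKM of Ttr was 324 for the sound trauma group and 8.36 for the MSC treated group, that of Clic6 5.71 and 3.06, and that of Folr1 1.58 and 0.212. On this scale the level of Ttr was 56.7 times that of Clic6 in sound trauma but 2.73 times in MSC treated animals, and 204 times and 39.4 times that of Folr1.

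The ratio of Clic6 to Ttr reads separated the same libraries. Per 1000 reads of Ttr there were 36.7 reads of Clic6 in specimen 6 (95% counting interval 32.1 to 41.8) and 55.9 in specimen 8 (49.5 to 62.9). In specimen 10 there were 1268 (995 to 1620). The MSC treated libraries had 1291 in specimen 13, 968 in specimen 18 and 1400 in specimen 20, and the interval of specimen 10 overlapped each of theirs. Over the MSC treated libraries the ratio varied 1.45-fold, and over all 6 it varied 38.1-fold. The intervals of specimens 6 and 8 did not overlap.

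The ratio of Folr1 to Ttr varied less. It was 10.3 per 1000 in specimen 6 (7.97 to 13.1) and 6.60 in specimen 8 (4.56 to 9.23), and these intervals overlapped. It was 65.0 in specimen 10, 23.3 in specimen 13, 39.7 in specimen 18 and 87.5 in specimen 20, but with so few Folr1 reads that the interval in specimen 13 ran from 2.77 to 86.6. Per 1000 reads of Clic6 there were 281 reads of Folr1 in specimen 6 (210.4 to 370.5) and 118 in specimen 8 (80.2 to 169). The other 4 libraries lay between 18.0 and 62.5, and their intervals overlapped. Over the 6 libraries the SD of the log2 ratio was 2.46 for Clic6 to Ttr, 1.55 for Folr1 to Ttr and 1.18 for Folr1 to Clic6. These SDs were taken with 1 added to each scaled count, and with 10 added they were 2.43, 1.98 and 0.593. No pair thus kept a constant ratio over the 6 libraries.

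**Figure D2:**
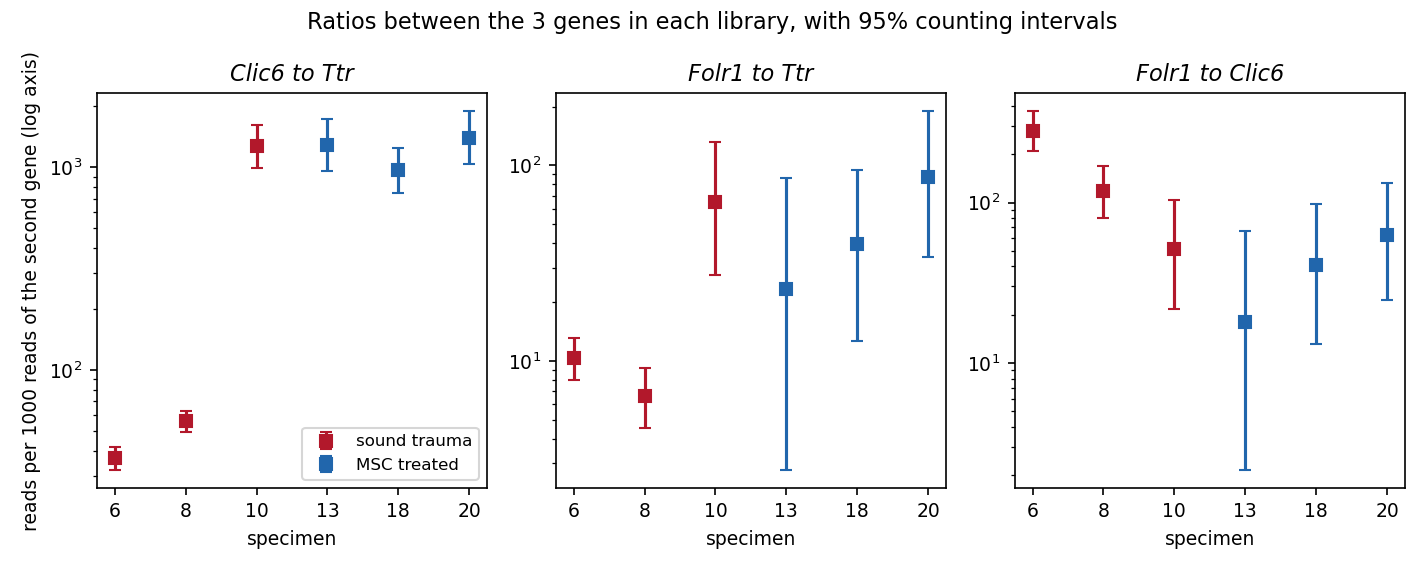
Reads of the first gene per 1000 reads of the second gene (log axes, which differ between panels) in each library, by specimen number, with sound trauma in red and MSC treated in blue. Points are single libraries and bars are exact 95% counting intervals. Clic6 to Ttr was 36.7 and 55.9 in specimens 6 and 8 and between 968 and 1400 in the other 4 libraries.

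The amount by which specimens 6 and 8 exceeded the MSC treated mean gave other ratios than the reads themselves. The excess of Ttr was 7315 scaled counts in specimen 6 and 4828 in specimen 8. That of Clic6 was 156 and 159, and that of Folr1 was 71.8 and 27.8. Per 1000 scaled counts of excess Ttr there were 21.3 of Clic6 and 9.82 of Folr1 in specimen 6, against 33.0 and 5.77 in specimen 8. The excess in specimen 6 divided by that in specimen 8 was 1.52 for Ttr, 0.981 for Clic6 and 2.58 for Folr1.

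Of 30 genes listed as markers of choroid plexus epithelium, 13 have a name in the deposited lists, the 3 genes above and 10 others. Of these 10, 9 are on the authors' down-regulated list and 1, the sulfate transporter Slc13a4, is on the up-regulated list, so their direction is fixed by how they came to have a name. The bicarbonate cotransporter Slc4a5, which takes part in fluid secretion, had 101, 74.6 and 2.68 scaled counts in sound trauma, against 2.08, 13.3 and 2.91 in MSC treated libraries. The prolactin receptor Prlr had 82.3, 60.2 and 3.57, against 2.08, 6.13 and 16.5. Both genes were thus at or near the floor of 3 reads in specimens 10 and 13 and well above it in specimens 6 and 8. Mfrp, a membrane frizzled-related protein, had 101, 48.8 and 26.8, against 13.5, 14.3 and 18.4, and was the only gene of the 10 whose groups did not overlap, beside 2.92% of all genes tested with every sound trauma value above. Without specimen 10, 12 of the 13 named genes had groups that did not overlap with sound trauma above, an order then held by 15.6% of all genes tested. These 12 are the genes on the down-regulated list, so nothing is read from that count.

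The homeobox factor Otx2, which the choroid plexus needs in order to form, had 62.6, 109 and 18.8 scaled counts in sound trauma, against 17.7, 33.7 and 23.3 in MSC treated libraries. Klotho (Kl), a coreceptor for the hormone Fgf23, had 319.9, 164 and 76.8, against 79.0, 116 and 81.5. For both, specimen 10 lay below at least 2 of the MSC treated libraries. Kcne2, an accessory subunit of potassium channels, had 57.9, 28.7 and 10.7, against 27.0, 15.3 and 12.6, so that specimen 13 nearly reached specimen 8. The serotonin receptor Htr2c, the monoamine transporter Slc29a4 and the homeobox factor Msx1 were also higher in specimens 6 and 8 than in any other library. Slc13a4 had 573, 462 and 884, against 784, 1247 and 725, and was lowest in specimens 6 and 8. Among the 10 genes, the 9 on the down-regulated list had specimens 6 and 8 both above the other 4 libraries, an order held by 14.3% of all genes tested. As that list favoured high values in sound trauma libraries, nothing is read from this count. The 10 genes summed to 1647, 1452 and 1086 in sound trauma, against 993, 1514 and 1011 in MSC treated libraries, so that specimen 18 lay above specimen 8. Slc13a4 made up much of these sums, and the 9 genes of the down-regulated list, a subset picked by direction, summed to 1074, 990.5 and 203, against 209, 267 and 286.

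**Figure D3:**
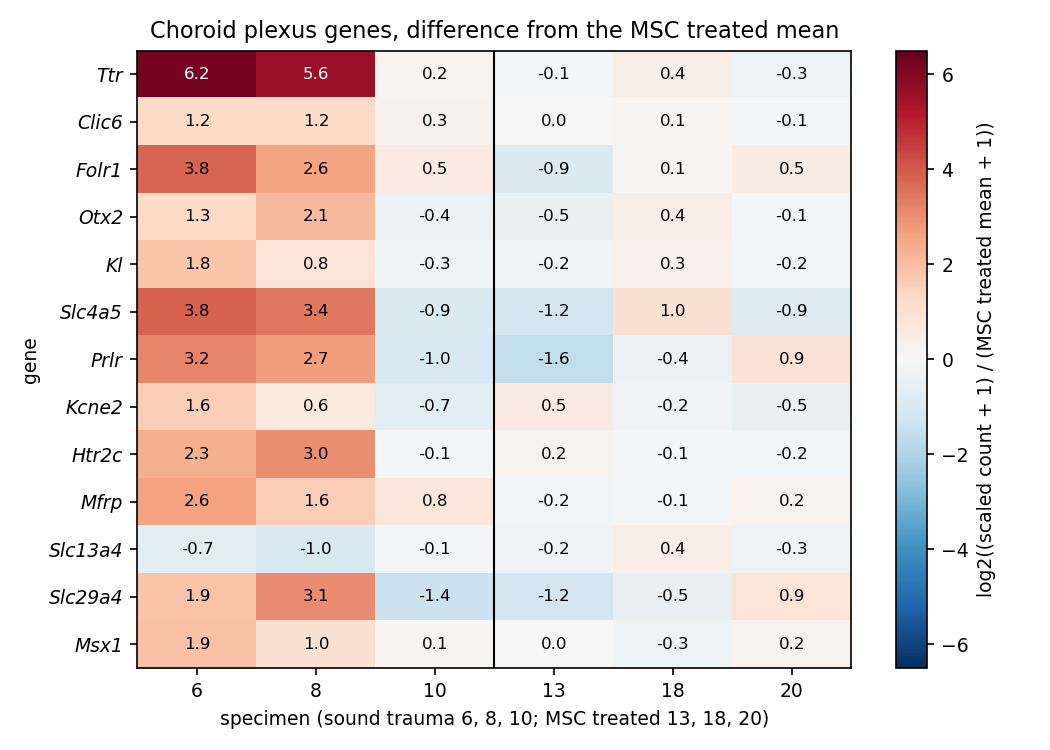
Difference of each library from the MSC treated mean, as log2 of (scaled count + 1) over (mean + 1), for the 13 named choroid plexus genes, by specimen number. Red cells are above and blue cells below the MSC treated mean. In specimens 6 and 8, 12 of the 13 genes are above it, led by Ttr at 6.22 and 5.63, and Slc13a4 is below it.

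Of these 10 genes, 9 passed the filter on low counts and were tested between the groups with limma over all 15970 genes, and 0 had an adjusted p under 0.05. Over all genes tested the share called was likewise 0%, with 0.954 as the lowest adjusted p of any gene. Without adjustment, 1 of the 9 genes was under 0.05 in limma, Mfrp, lower in MSC treated animals with a log2 difference of -1.68 (standard error 0.50). At that limit edgeR had 3 of the 9, DESeq2 6 and limma-voom 1, each of them on the down-regulated list. Of all genes tested, 0.67% were lower in MSC treated animals at that limit in limma, 1.67% in edgeR, 3.44% in DESeq2 and 0.614% in limma-voom. The median log2 difference of the 9 genes was -1.04, beside 0.0014 for all genes tested. These genes carry a name because the study listed them as changed in the same animals, so none of these counts is independent evidence of a direction.

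The balance between specimens 6 and 8 differed between the marker lists, which is given as a description with no test. The named neuronal, astrocyte, ependymal, pituitary and folate genes are all on the down-regulated list, which favoured high values in sound trauma libraries. For the 9 other choroid plexus genes with at least 10 scaled counts of excess in both, the excess in specimen 6 divided by that in specimen 8 had a median of 1.42 and ranged from 0.364 to 3.82. The lowest values were those of Slc29a4, Otx2 and Htr2c, at 0.364, 0.448 and 0.564. For 14 genes of central neurons the median was 0.130 and the range 0.0633 to 0.239, and for 7 astrocyte genes the median was 0.268 and the range 0.0363 to 1.47. The 3 genes described here, at 1.52, 0.981 and 2.58, lay above the range of these 14 genes. The other 2 of the 16 neuronal genes have no such quotient because they had no excess in 1 of the specimens, and they leaned opposite ways. Pvalb exceeded the MSC treated mean by 19238 in specimen 6 and was below it in specimen 8, and so leaned further to specimen 6 than any of the 3 genes, whereas Zic2 exceeded it by 1151 in specimen 8 and was below it in specimen 6. All 13 named genes of ependyma and motile cilia, the ciliated cells that line the ventricles, were highest in specimen 8. Relative to the MSC treated mean, their median was 0.973-fold in specimen 6, 4.37-fold in specimen 8 and 1.77-fold in specimen 10. Other lists leaned to specimen 6. All 11 named pituitary genes were highest in it, with a median of 22.3-fold in specimen 6 and 0.376-fold in specimen 8 relative to the MSC treated mean. The 1 of them with enough excess in both, Chga, had a quotient of 1.96. The share of all genes highest in specimen 8 or in specimen 6 was not obtained, so nothing is read from these counts of 13 and 11. The 3 other folate genes had a median quotient of 2.05, ranging from 0.663 to 2.31. A balance like that of Ttr was thus not limited to choroid plexus genes. The part of RNA from neighbouring tissue in the level of Ttr was not tested.

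**Figure D4:**
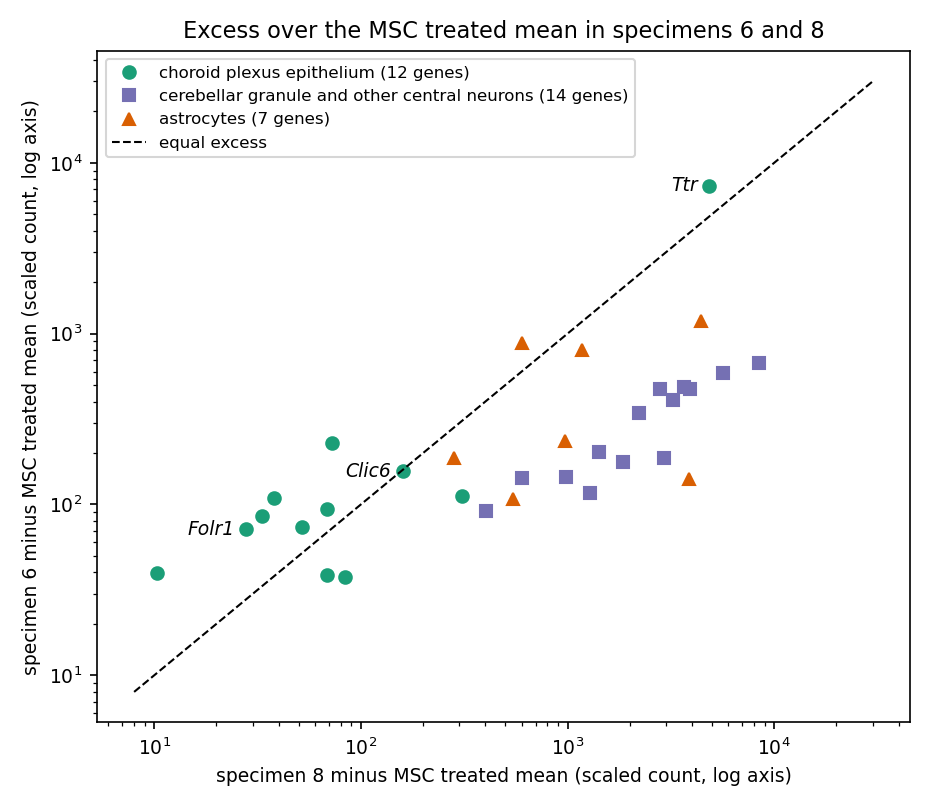
Excess over the MSC treated mean in specimen 6 against that in specimen 8, in scaled counts on log axes, for named genes with at least 10 scaled counts of excess in both. Each point is a gene of the list given by its colour and shape, and the dashed line marks equal excess. Ttr lies at 7315 and 4828, the choroid plexus genes lie on both sides of the line, and the 14 neuronal genes lie below it.

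Likeness to each gene was measured as the SD, over the 6 libraries, of the log2(scaled count + 1) difference between genes, so that a smaller SD means a steadier ratio. For Ttr the nearest named gene was Slc4a5, with an SD of 1.11, and no other tested gene was nearer. It was followed by Neurod2, Slc32a1 and Gad2, at 1.28, 1.29 and 1.29, and then by Cdh7, Kcnj9, Cbln1, Gm3764, Grin2c and Cbln3, at 1.32 to 1.41. Several of these mark inhibitory neurons (Gad2, Slc32a1) or cerebellar granule neurons (Cbln1, Cbln3, Grin2c). All 9 genes after Slc4a5 were highest in specimen 8, whereas Ttr and Slc4a5 were highest in specimen 6. Folr1, with an SD of 1.55, had 20 tested genes nearer to Ttr than itself, and Clic6, with 2.46, had 613, out of 15969 compared. The median SD over these genes was 3.08.

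For Clic6 the nearest named genes were Sel1l3, Dnase1l2, Ptpn5, Abhd6 and Pm20d1, with SDs between 0.130 and 0.196. Sel1l3 had 727, 905 and 401 scaled counts in sound trauma, against 382, 349 and 306 in MSC treated libraries, and so had both high libraries in common with Clic6. Seen from Clic6, 15932 of 15969 genes (99.8%) were nearer than Ttr and 15060 (94.3%) were nearer than Folr1, so that almost all genes kept a steadier ratio to Clic6 than either of them did. This SD follows the size of each gene's own change, and Clic6 changed less than Ttr and Folr1. A gene with flat values can thus lie near Clic6 whatever its order over libraries, and the median SD to Clic6 was 0.689. For Folr1 the nearest were Fam183b, Ly6h, Efcab1, C77370 and Mfrp, with SDs between 0.591 and 0.700. Fam183b had 81.1, 53.5 and 20.5, against 9.35, 14.3 and 15.5. Mfrp was the only gene of the choroid plexus list among these 5. Of 15970 genes, 182 (1.14%) were nearer to Folr1 than Clic6 was, and 2058 (12.9%) were nearer than Ttr. The genes named as nearest to Ttr, Clic6 and Folr1 had no gene in common.

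Few other genes of the pathways that the 3 proteins serve have a name in the deposited lists. Of 30 genes of thyroid hormone and retinol transport and action, 7 are named, Ttr included, and of the remaining 6, 4 are on the down-regulated list and 2 on the up-regulated list. The thyroid hormone receptor genes were highest in different libraries, Thra in specimen 8 (3070 scaled counts, against 1473 to 1756 in the others) and Thrb in specimen 6 (486, against 139 to 189). Aldh1a1, a retinaldehyde dehydrogenase, had 1422, 1674 and 1062 scaled counts in sound trauma, against 1013, 1190 and 964 in MSC treated libraries. Aldh1a3, another, ran the opposite way, with 249, 233 and 521, against 529.8, 503 and 391. In limma 0 of the 6 passed after adjustment, and without it 0 were under 0.05 in limma, edgeR, DESeq2 or limma-voom. Of all genes tested, 2.35%, 3.29%, 5% and 2.19% were under that limit in these tools in either direction, so that a count of 0 among 6 genes is near the background and is no result about this list. Their median log2 difference was -0.24. Klf9, a thyroid hormone target, was the single gene of the 6 whose groups did not overlap, at 1815 to 1985 against 1459 to 1815, with a gap of less than 1 scaled count, an order held by 2.92% of all genes tested.

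Of 20 genes of folate uptake and one-carbon metabolism, 4 are named, Folr1 included. Mtrr, methionine synthase reductase, had 209, 145 and 129 scaled counts in sound trauma, against 108, 71.5 and 75.7 in MSC treated libraries, with no overlap between the groups and a log2 difference of -0.90 (standard error 0.27). Shmt2, the mitochondrial serine hydroxymethyltransferase, did not overlap either, at 723 to 814 against 616 to 702, an order held by 2.92% of all genes tested. Aldh1l1, which also marks astrocytes, was highest in specimen 8 at 450.3. In limma 0 of the 3 passed after adjustment, and without it 1 (Mtrr) was under 0.05, as were 1 in edgeR, 2 in DESeq2 and 1 in limma-voom, beside the 0.67%, 1.67%, 3.44% and 0.614% of all genes that were lower in these tools. The 3 genes are named because they are on the down-regulated list, which fixed their direction. Their median log2 difference was -0.85. Of the CLIC family of 5 genes, Clic1 is the other named member. It had 808, 874 and 1257 scaled counts in sound trauma, against 1104, 1143 and 1267 in MSC treated libraries, and so was lowest in the libraries in which Clic6 was highest. It was not called in limma, with a log2 difference of 0.28.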

How the data were processed

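The authors trimmed and aligned reads to the C57BL/6NJ genome and counted them per gene. They deposited a signal, in which each library's counts were scaled by its own single factor. The counting tool and its handling of strand are not given in the sources used here. All values (100%) were whole multiples of the value of 1 read within 0.0001, and reads were recovered from them. The deposited lists also hold the authors' mean FPKM per group, printed as such, with an FDR and fold change that were not used. Gene names came from these lists only, which name 3716 genes, and no coordinates are given since no annotation of that genome was used. The 3 genes and all gene lists were chosen with earlier results of these data known.

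The filterByExpr function of edgeR 4.0.16 kept 15970 genes, tested with limma 3.58.1 (limma-trend) on log2(scaled count + 1) over all 6 libraries, with Benjamini-Hochberg adjustment and two-sided p-values. The quasi-likelihood test of edgeR, DESeq2 1.42.0 and limma-voom were run on recovered reads, in R 4.3.3. Each called 0 genes, as did limma. The test was first checked on simulated data with equal numbers of planted 8-fold and 2-fold changes. There limma recovered 97 of the 8-fold changes but only 5 of the 2-fold changes. The other tools recovered 96 to 98 and 7 to 14. A count of 0 calls therefore says little about changes of about 2-fold. Intervals are exact 95% binomial or Poisson intervals from scipy 1.17.1. Genes named are the 3 members, list genes with a name, and the named genes with the smallest SD of the log2 ratio to each member (10 for Ttr, 5 each for Clic6 and Folr1). Alternatives were other pseudocounts, scalings, filters and tests, and each library left out.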

Additional observations from a re-analysis of the deposited data

How the results depend on the processing

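The log2 differences between the groups kept their sign for Ttr, Clic6 and Folr1 under every alternative that gave a value. These were 14 alternatives each for Ttr and Clic6 and 11 for Folr1, which was removed by the low-count filter and so had no value under edgeR, DESeq2 or limma-voom. With each library left out in turn they ranged from -5.96 to -2.93 for Ttr, from -1.23 to -0.74 for Clic6 and from -3.27 to -1.65 for Folr1. The SD of the log2 ratio ranged from 2.00 to 2.67 for Clic6 to Ttr, from 1.26 to 1.73 for Folr1 to Ttr and from 0.801 to 1.32 for Folr1 to Clic6 over the same omissions. With a pseudocount of 10 the log2 difference of Folr1 was -1.45 and its SD to Clic6 0.593, where low counts weigh less by construction. Between 0 and 1 genes were called when a library was left out. The single call, Ttr, came without specimen 10, and as Ttr was selected on this contrast it is no test of it. All other filters, scalings, pseudocounts and tests gave 0 calls. The number of the 13 choroid plexus genes with every sound trauma value above every MSC treated value was 3, ranged from 3 to 12 with a library left out, and was 12 without specimen 10, where the share of all genes tested was 15.6%, against 2.92% with all libraries. This count was chosen after seeing the data, as was the share of genes with a lower value in MSC treated animals, which was 49.8% with the authors' scaling and 38.1% (6083 lower and 9887 higher) when scaled by total counts, with a median log2 difference of 0.073. No paired analysis was possible because the groups share no specimen numbers. With 2 to 8 reads of Folr1 in 4 libraries, differences among those libraries were not detectable at this depth.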
